A study of Mus musculus with 6 samples.

Results

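The core autophagy machinery was examined as 38 genes, picked by gene symbol from the 54532 genes of the deposited expression table. The list held 5 genes of the ULK1 complex, 6 genes of the class III PI3-kinase complexes, 8 genes of phosphoinositide binding and lipid transfer, 11 genes of the LC3 conjugation system, the 5 ATG8 family genes, the cargo receptor gene Nbr1 and the transcription factor genes Tfeb and Tfe3. The rule for choosing them used no expression value, but the list was chosen with earlier results of these data known. Expression was measured as FPKM, the fragments of a gene scaled by its length and by library size. Testing required an FPKM averaging at least 1 over the 6 libraries, and 36 of the 38 genes passed. Wipi1 and Atg16l2 did not.

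Autophagy encloses cytoplasm, damaged organelles or microbes in a double membrane, the autophagosome, which is then delivered to lysosomes. The ULK1 kinase complex starts the process, a class III PI3-kinase complex marks the growing membrane with phosphatidylinositol 3-phosphate, and lipid transfer proteins feed that membrane. A conjugation system resembling that of ubiquitin then attaches ATG8 proteins (the LC3 and GABARAP families) to the membrane lipid, where they capture cargo. In macrophages this machinery is known to remove damaged mitochondria and to restrain the NLRP3 inflammasome, and much of its activity is set at the protein level, which transcript abundance does not measure.

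RNA-seq was performed on poly-A RNA of peritoneal macrophages from wild-type C57BL/6J mice aged 6 to 8 weeks, harvested after a thioglycolate injection that recruits these cells to the peritoneal cavity. Control cells were untreated. Model cells were stimulated with LPS, which comes from the outer membrane of bacteria, at 500 ng/mL for 5.5 h and then with ATP at 2 mM for 0.5 h, a sequence that activates NLRP3. MUS cells were stimulated in the same way, and muscone, the main scent compound of musk, was given at 50 μM starting 0.5 h before ATP. Each group had 2 libraries. The groups therefore separate the effect of LPS + ATP (Model vs. Control) from that of muscone on top of it (MUS vs. Model). Neither LPS alone nor muscone alone was among the groups, and nothing states that replicates came from separate animals, so p-values measure only the spread between these libraries.

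The libraries held 15526321 to 17135442 fragments on genes. All 7 macrophage markers checked were detected, with summed FPKM of 11836 to 13340 in Control, 8426 to 12535 in Model and 10257 to 12096 in MUS. Of the 7 T cell, 5 B cell, 5 eosinophil and 5 mast cell markers, the summed FPKM stayed at or below 4.17 in every library. Of 6 neutrophil markers, 4 were listed at 0 in every library, and S100a8, which macrophages can also express, made up nearly all of a sum that was 13.5 to 30.6 in Control, 56.5 to 110 in Model and 50.3 to 64.0 in MUS. The T cell sum was 0.321 to 0.597 in Control, 1.5 to 3.43 in Model and 2.15 to 2.74 in MUS, mostly Lck outside Control, while Cd3e did not exceed 0.0521 FPKM. The part of such cells in the results below was not tested. Control replicate 2 stood apart from Control replicate 1 for genes that LPS induces, with 183 against 8.62 FPKM for Tnf, 34.2 against 0.550 FPKM for Il1b and 29.2 against 0.505 FPKM for Cxcl10, while Il1b reached at least 4750 FPKM in all Model and MUS libraries. For 29 of the 36 autophagy genes (80.6%), and for 75.7% of all 9794 genes tested, Control replicate 2 lay on the Model side of Control replicate 1. Both sides of this comparison are measured from Control replicate 1, so spread in that library alone raises these shares. Because Control replicate 2 stood apart, median log2 fold changes of the 36 genes are also given without each Control library.

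Transcript levels of the 38 genes covered a wide range in these macrophages. Per unit of gene length, Gabarap, which encodes an ATG8 protein, had the highest mean over the 6 libraries (133.9 FPKM). It was followed by Vmp1, a lipid scramblase of the endoplasmic reticulum needed for autophagosome formation (67.3 FPKM), and by Atg12, a ubiquitin-like protein conjugated to ATG5 (37.4 FPKM). At the other end, Wipi1, which encodes a phosphoinositide-binding protein, had 1.94 and 1.32 FPKM in Control. It had 0.466 and 0.454 FPKM in Model, with 0.375 and 0.726 FPKM in MUS. Atg16l2, a relative of Atg16l1, did not exceed 0.686 FPKM in any library. Both were lower in every Model library than in either Control library, but neither was tested.

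Comparison of Model vs. Control identified 7 of the 36 genes as lower after LPS + ATP (a gene was called where its adjusted p did not exceed 0.05 and its log2 fold change exceeded 1 in size) and 0 as higher. The 7 genes act at separate steps. Tfeb encodes a master transcription factor of lysosomal and autophagy genes, Ulk1 and Ulk2 the kinases that start autophagy, Atg2a a lipid transfer protein, Atg7 the E1-like enzyme of LC3 conjugation, Gabarapl1 an ATG8 protein and Nbr1 a cargo receptor. Over all 9794 genes tested, 15.1% were called, 9.5% higher and 5.56% lower. Of the 36 genes, 19.4% were called lower. The median log2 fold change was -0.43 for the 36 genes and 0.04 over all genes tested, and 26 of the 36 (72.2%) lay below 0 against 47.5% of all genes. The libraries of the groups did not overlap for 8 genes that were higher in Model (32.6% of all genes) and for 19 that were lower (28.5% of all genes), and 14 genes had an unadjusted p under 0.05 (33.6% of all genes).

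**Figure D1:**
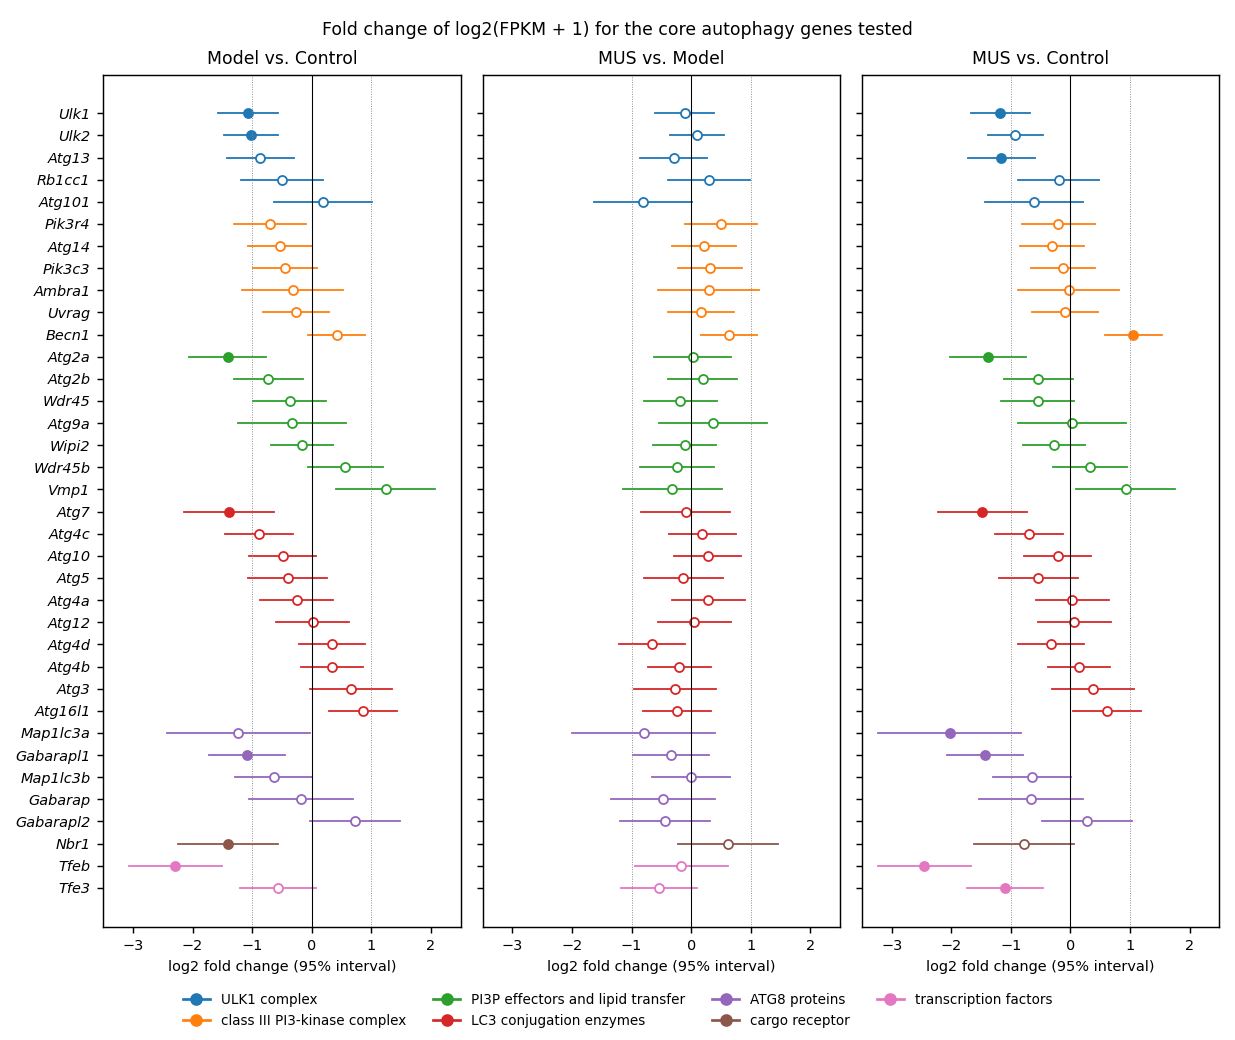
Log2 fold change of log2(FPKM + 1) with its 95% interval from limma for the 36 genes tested, coloured by role, in Model vs. Control, MUS vs. Model and MUS vs. Control. Filled points are called genes (7, 0 and 9 in the 3 panels), and dotted lines mark a log2 fold change of -1 and 1.

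Tfeb, located at chr17:47737030-47792419 on the plus strand, had 9.86 and 4.75 FPKM in Control, 0.825 and 0.433 FPKM in Model, and 0.408 and 0.478 FPKM in MUS. Both Control libraries were far above all 4 stimulated libraries. The Model mean was 11.6-fold lower than the Control mean, and the log2 fold change was -2.29 (SE 0.33, limma adjusted p = 0.00667). It was -2.57 between the libraries of batch 1 and -2.00 between those of batch 2. Tfeb was counted with 1278 and 616 fragments in Control, against 66 and 38 in Model. Tfe3, a closely related factor, had 9.66 and 9.0 FPKM in Control and 5.30 and 6.64 FPKM in Model. The groups did not overlap, but the log2 fold change of -0.57 did not pass the test (SE 0.27, limma adjusted p = 0.185).

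In the ULK1 complex, the kinase genes Ulk1 and Ulk2 fell. Ulk1 had 5.47 and 4.78 FPKM in Control and 1.67 and 2.17 FPKM in Model, a log2 fold change of -1.07 (SE 0.21, limma adjusted p = 0.0174). Ulk2, its paralog, had 7.70 and 7.17 FPKM in Control and 3.01 and 3.29 FPKM in Model, a log2 fold change of -1.02 (SE 0.19, limma adjusted p = 0.0150). For both kinases the replicates lay close together and the groups were well apart. Atg13, the adaptor that links the kinases to their partners, had 15.2 and 11.8 FPKM in Control and 7.14 and 6.68 FPKM in Model. Its log2 fold change of -0.87 passed the p threshold (SE 0.24, limma adjusted p = 0.0494) but not the fold threshold. Rb1cc1, the scaffold of the complex also known as FIP200, had 3.49 and 4.05 FPKM in Control and 1.55 and 3.43 FPKM in Model, so that the groups lay just apart and the Model replicates differed widely. Atg101, which stabilises ATG13, had 10.1 and 13.8 FPKM in Control and 19.2 and 9.58 FPKM in Model, with overlapping groups.

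None of the 6 class III PI3-kinase genes was called in Model vs. Control (limma, smallest adjusted p = 0.106, with 1 gene at an unadjusted p under 0.05). That gene was Pik3r4, the regulatory subunit VPS15, with 2.98 and 2.15 FPKM in Control and 0.866 and 1.53 FPKM in Model. Log2 fold changes were below 0 for Pik3r4, Atg14, Pik3c3, Ambra1 and Uvrag, between -0.70 and -0.26. Becn1, which encodes Beclin 1, the scaffold of both forms of the complex, had 4.45 and 4.33 FPKM in Control and 5.77 and 6.64 FPKM in Model. Its log2 fold change was 0.42 (SE 0.20, limma adjusted p = 0.197), and this direction held with the deposited values but turned when the libraries were rescaled by their fragment totals.

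Among the genes of phosphoinositide binding and lipid transfer, Atg2a fell. Atg2a, which moves lipids from the endoplasmic reticulum to the growing membrane, had 5.29 and 4.72 FPKM in Control and 0.792 and 1.85 FPKM in Model, a log2 fold change of -1.41 (SE 0.27, limma adjusted p = 0.0164). Both Model libraries were well below both Control libraries. Its paralog Atg2b had 1.56 and 2.09 FPKM in Control and 0.490 and 0.926 FPKM in Model, a log2 fold change of -0.73 that was not called (limma adjusted p = 0.0860). Vmp1 was the gene with the highest log2 fold change, with 29.1 and 48.2 FPKM in Control and 106 and 75.8 FPKM in Model. The groups did not overlap, and the log2 fold change of 1.24 narrowly missed the p threshold (SE 0.35, limma adjusted p = 0.0531). The microRNA gene Mir21a overlaps 2.38% of the exon bases of Vmp1 on the same strand, and the part of its transcript in this value was not tested.

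The LC3 conjugation genes were mixed, with 5 of the 10 tested above 0 and 5 below. Atg7 had 13.7 and 7.38 FPKM in Control and 2.75 and 3.80 FPKM in Model, a log2 fold change of -1.39 (SE 0.32, limma adjusted p = 0.0279). The Control replicates were far apart, yet both exceeded each Model library. Atg4c, a protease that trims ATG8 proteins, had 10.2 and 7.15 FPKM in Control and 4.59 and 3.79 FPKM in Model, with a log2 fold change of -0.89 (limma adjusted p = 0.0462), short of the fold threshold. Atg16l1, which directs the conjugation machinery to the membrane, had 2.33 and 3.45 FPKM in Control and 5.72 and 6.19 FPKM in Model. Its groups did not overlap, and its log2 fold change was 0.85 (SE 0.24, limma adjusted p = 0.0528). Atg12 had 38.9 and 34.5 FPKM in Control, 38.9 and 35.1 FPKM in Model and 37.0 and 39.9 FPKM in MUS, the log2 fold change of Model vs. Control being 0.01 with a 95% interval of -0.60 to 0.62. The remaining genes of this group, Atg3, Atg4a, Atg4b, Atg4d, Atg5 and Atg10, had log2 fold changes between -0.49 and 0.66 and were not called.

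In the ATG8 family, Gabarapl1 fell from 56.3 and 46.3 FPKM in Control to 24.1 and 22.8 FPKM in Model, a log2 fold change of -1.09 (SE 0.27, limma adjusted p = 0.0354). This call was lost with no filter on low values, as were all 7 calls of the comparison. It was lost with only the Control and Model libraries fitted, as were those of Ulk1, Ulk2, Atg7 and Nbr1. With replicate numbers as a block, Gabarapl1 alone of the 7 was lost. When 1 library was left out, the log2 fold change of Gabarapl1 lay between -1.23 and -0.95. The antisense gene 1700101I11Rik overlaps 28.3% of the exon bases of Gabarapl1 but held only 12 to 25 fragments in a library. Map1lc3a, which encodes LC3A, had 9.92 and 3.66 FPKM in Control and 3.42 and 1.09 FPKM in Model. The groups did not overlap, but the replicates of each group differed widely, and the log2 fold change of -1.23 was not called (SE 0.51, limma adjusted p = 0.140). Map1lc3b, the LC3B gene commonly used as a marker of autophagosomes, had 23.1 and 17.3 FPKM in Control and 14.8 and 10.5 FPKM in Model (log2 fold change -0.64, limma adjusted p = 0.155). Gabarapl2, also known as GATE-16, had 12.4 and 14.2 FPKM in Control and 29.8 and 17.2 FPKM in Model. Its groups did not overlap either, with a log2 fold change of 0.73 (SE 0.32, limma adjusted p = 0.161).

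The make-up of the ATG8 transcripts can be given as shares of their summed FPKM. Gabarap held 64.2% and 62.6% of the sum in the Control libraries, 71.1% and 67.7% in those of Model, with 65.8% and 68.7% in MUS. Gabarapl1 held 19.8% and 21.3% of it in Control, 9.64% and 14.3% in the Model libraries, with 11.6% and 13.2% in MUS. Gabarapl2 held 4.37% and 6.54% of it in Control, 11.9% and 10.8% in the Model libraries, with 13.7% and 9.05% in MUS. Thus in both Control libraries Gabarapl1 was the second most abundant member by a wide margin, and in the stimulated libraries Gabarapl1 exceeded Gabarapl2 in both replicates 2 and lay below it in both replicates 1. These shares do not depend on how the libraries were scaled and were not tested.

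Nbr1, a receptor for ubiquitinated cargo, had 10.8 and 6.07 FPKM in Control, 1.64 and 3.53 FPKM in Model, and 3.70 and 4.96 FPKM in MUS. The Control libraries were the highest, followed by both MUS libraries and then both Model libraries. The log2 fold change of Model vs. Control was -1.40 (SE 0.36, limma adjusted p = 0.0376), and within batches it was -2.16 and -0.64.

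**Figure D2:**
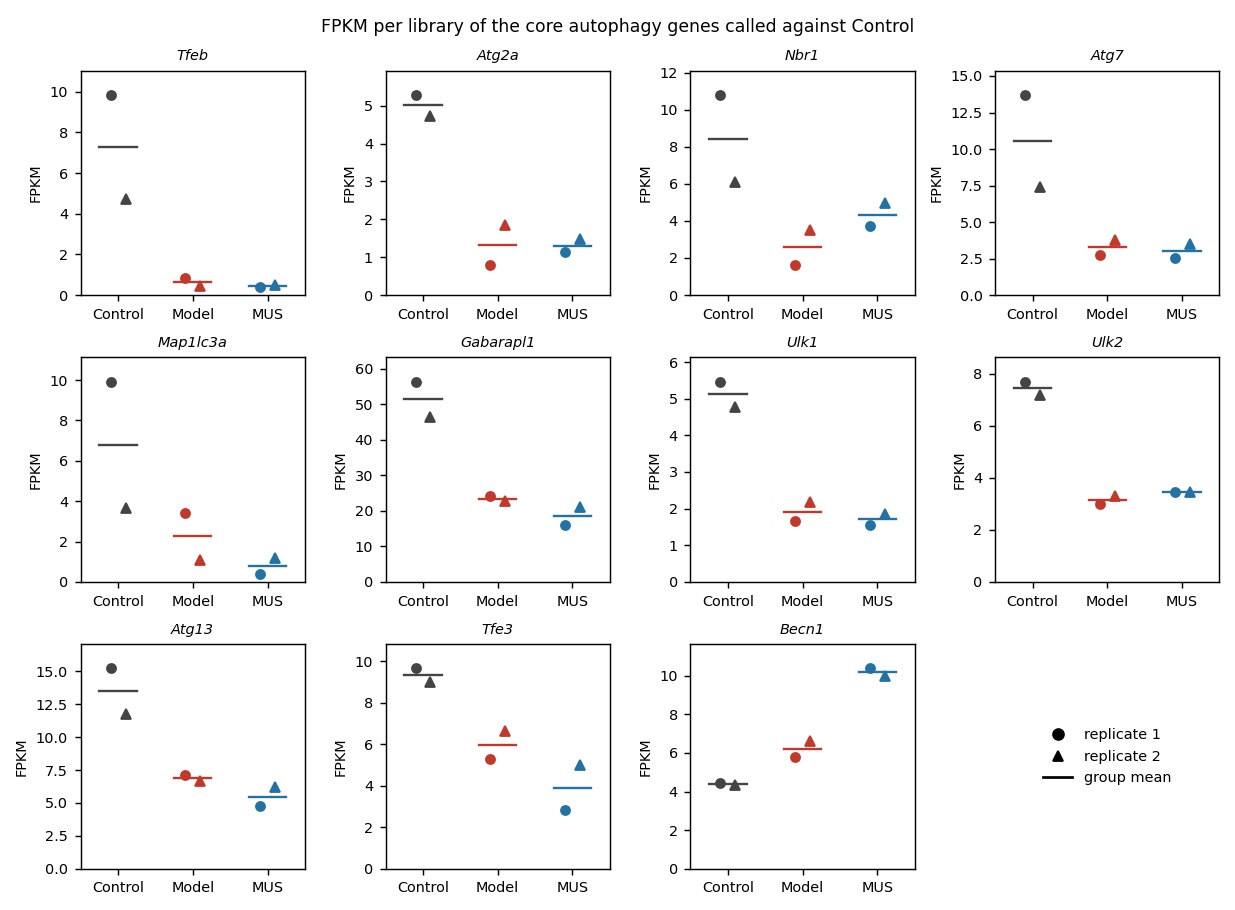
FPKM in each library for the 11 genes called in Model vs. Control or MUS vs. Control, with the replicate numbers as circles and triangles, horizontal lines for the group means (n = 2) and each vertical axis starting at 0. The Control libraries lie above both other groups for all genes shown except Becn1, which is highest in MUS (10.4 and 9.98 FPKM).

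Counts of calls in Model vs. Control rested on few libraries. With only the Control and Model libraries fitted, limma called 2 of the 36 genes, Atg2a and Tfeb. Over all 9794 genes it called 797, against 1475 with all libraries. Leaving out 1 library leaves a single library in a group, so only effect sizes are given for such fits. The median log2 fold change of the 36 genes was -0.457 without Control replicate 1 and -0.435 without Control replicate 2. It was -0.433 without Model replicate 1 and -0.563 without Model replicate 2. Over all genes these medians were 0.029, 0.060, 0.024 and 0.044 in the same order. In such fits Ulk1, Ulk2, Gabarapl1 and Atg7 came to -0.95, -0.97, -0.95 and -0.98 at the smallest, short of the fold threshold. In bulk RNA, fewer cells expressing a gene and less RNA of it per cell cannot be told apart.

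The direction of the smaller differences also depended on how the libraries were scaled. The deposited FPKM divide by a total per library that was 1.45 and 1.34 times the fragments on genes in Control, but 0.909 to 0.998 times in Model and MUS. Scaling by the fragments on genes moved the median log2 fold change of Model vs. Control over all genes from 0.04 to -0.40, and that of the 36 genes from -0.43 to -0.91. The difference between the medians went from -0.47 to -0.51. Under this scaling 13 of the 36 genes were called lower and 0 higher, with 15.6% of all genes lower. All 7 genes called with the deposited values were called under quantile normalization and under each of 3 rescalings, while 5 or 6 of the 10 genes above 0 had values below 0 under each rescaling. Vmp1, Atg16l1 and Gabarapl2 stayed above 0 under all of these, with log2 fold changes of at least 0.53, 0.36 and 0.14.

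**Figure D3:**
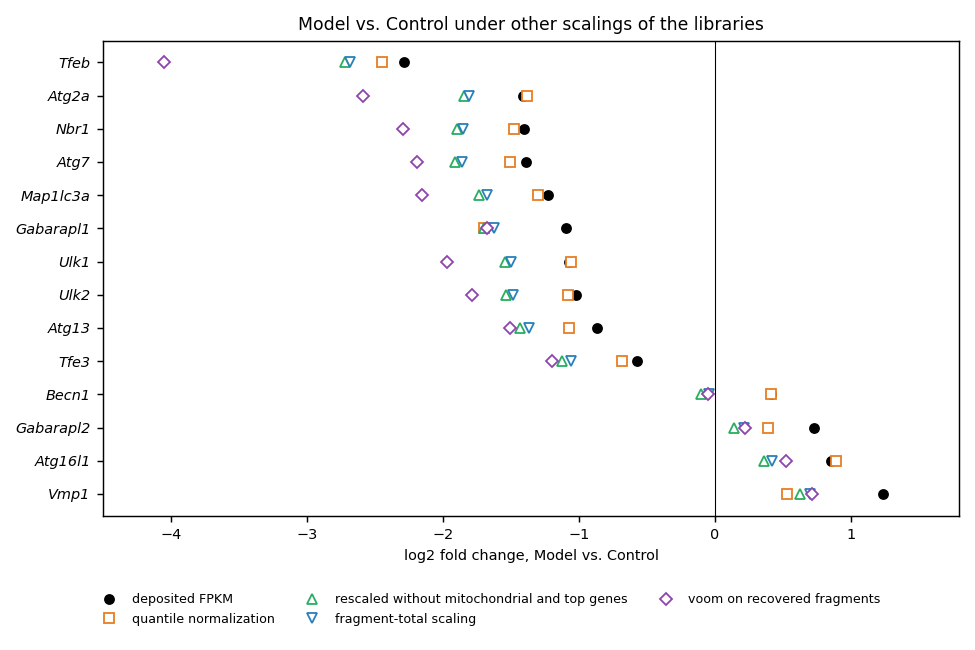
Log2 fold change in Model vs. Control of the 14 genes with full statistics, from the deposited FPKM and under 4 other scalings of the libraries. The 7 called genes stay below -1 under every scaling shown, Becn1 moves from 0.42 to between -0.10 and -0.04 under the 3 rescalings, and Vmp1 stays above 0.

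Differences between the 2 Model libraries followed gene length among the autophagy genes. Of 9 genes shorter than 3 kb, 7 were higher in Model replicate 1, and of 16 genes of at least 6 kb, 14 were lower there. In MUS, 12 of the 16 long genes were also lower in replicate 1, while 3 of the 9 short genes were higher. In Control, 6 of the long genes were lower in replicate 1 and 4 of the short genes higher. Map1lc3a, Atg101 and Gabarapl2 were the short genes with the largest excess in Model replicate 1, and Atg9a (0.566 against 2.59 FPKM), Ambra1 (1.88 against 5.09 FPKM) and Rb1cc1 (1.55 against 3.43 FPKM) had the largest deficits. Ankzf1 on the opposite strand and Gm29253 on the same strand overlap 32.6% of the exon bases of Atg9a. The part of these genes in its values was not tested. Pearson's r between the difference of log2(FPKM + 1) and log2 length was -0.65 over the 36 genes in Model, -0.09 in Control and -0.12 in MUS, and -0.14 over all 9794 genes in Model. These are correlations across genes, which share a library and are not independent replicates. After correction for gene length 8 genes were called in Model vs. Control, among them all 7 named above, and 8 in MUS vs. Control, without Becn1, both with limma. Over all genes 1537 and 2018 were called after this correction. Model replicate 1 also had the most genes with at least 1 fragment (24906, against 17406 to 19200 in the other libraries).

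**Figure D4:**
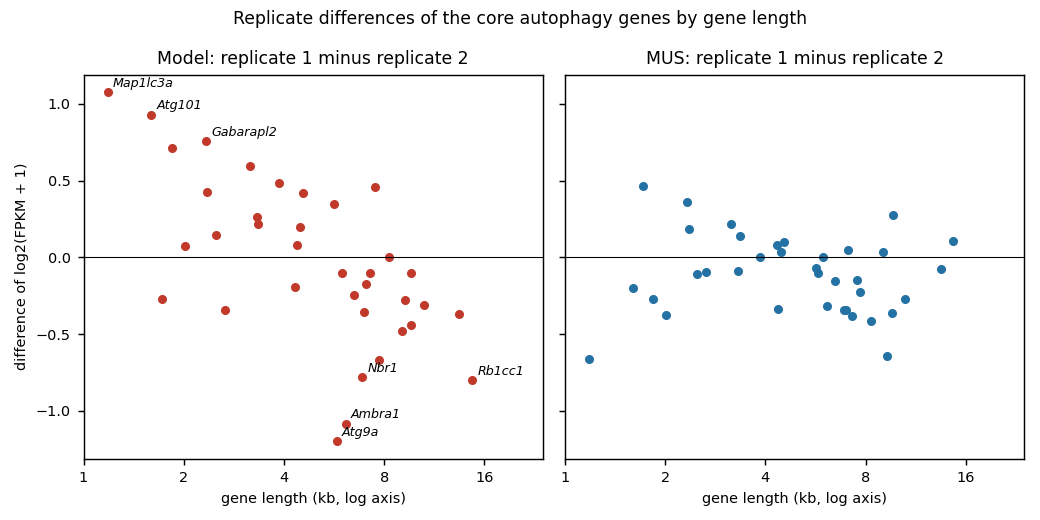
Difference of log2(FPKM + 1) between replicate 1 and replicate 2 of Model (left) and MUS (right) against gene length in kb on a log axis, 1 point for each of the 36 genes tested. In Model most genes of at least 6 kb lie below 0 (14 of 16) and most under 3 kb above 0 (7 of 9), with the genes that differ by more than 0.75 named. In MUS 12 of the 16 long genes lie below 0 and 3 of the 9 short genes above 0.

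The muscone comparison identified 0 of the 36 genes as called in MUS vs. Model, and 0 of all 9794 genes (0.0%) with limma. With only the Model and MUS libraries fitted, limma called 7 of all genes and 0 of the 36. The paper, with DESeq2 at the same thresholds, reports differentially expressed genes for this comparison, most of them lower with muscone. Muscone was added for only the last hour of stimulation, and the comparison asks whether transcripts of the machinery moved within it. The smallest adjusted p was 0.464 among the 36 genes and 0.139 over all genes. At an unadjusted p under 0.05 there were 2 of the 36 genes (5.56%), against 8.42% of all genes. Use of voom on the recovered fragments also called 0 of the 36, and 0 of all genes. The median log2 fold change was -0.10 for the 36 genes and 0.01 over all genes, with 16 genes above 0 and 20 below (48.7% of all genes were below 0). Libraries of the groups did not overlap for 8 genes that were higher in MUS and 8 that were lower, where 21.2% and 21.0% of all genes did so. The 95% interval had a median width of 1.24 on the log2 scale, and it lay within -1 to 1 for 24 of the 36 genes. On this scale the same width covers a larger fold in FPKM for low genes.

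Becn1, located at chr11:101285952-101302286 on the minus strand, had the highest log2 fold change in MUS vs. Model. It had 5.77 and 6.64 FPKM in Model and 10.4 and 9.98 FPKM in MUS. Both MUS libraries were above both Model libraries, and the replicates of MUS were close together. The log2 fold change was 0.64 (SE 0.20, 95% interval 0.16 to 1.11), with an unadjusted p of 0.0161 and a limma adjusted p of 0.464. It was 0.75 in batch 1 and 0.52 in batch 2. Cntd1, on the opposite strand, overlaps 43.9% of the exon bases of Becn1, and it held between 0 and 2 fragments in a library, against 575 to 1145 for Becn1.

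Next came Nbr1, with a log2 fold change of 0.61 (SE 0.36, 95% interval -0.23 to 1.45, limma adjusted p = 0.717), and Pik3r4, with 0.50 (SE 0.26, 95% interval -0.11 to 1.11, limma adjusted p = 0.679). Pik3r4 had 0.866 and 1.53 FPKM in Model and 2.38 and 1.79 FPKM in MUS. Both genes were higher in each MUS library than in each Model library. All 6 class III PI3-kinase genes had log2 fold changes above 0 in MUS vs. Model, from 0.17 for Uvrag to 0.64 for Becn1, and 4 of them had libraries that did not overlap. Over all genes, 48.7% lay below 0 and 21.2% had MUS libraries above those of Model. Uvrag and Ambra1 lay below 0 without Model replicate 1, and none of the 6 passed the test.

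Atg101, Map1lc3a and Atg4d were at the lower end in MUS vs. Model. Atg101 had 19.2 and 9.58 FPKM in Model and 6.79 and 7.94 FPKM in MUS, a log2 fold change of -0.81 (SE 0.35, 95% interval -1.63 to 0.01, limma adjusted p = 0.604). Map1lc3a had 3.42 and 1.09 FPKM in Model and 0.392 and 1.20 FPKM in MUS, a log2 fold change of -0.80 (SE 0.51, 95% interval -2.00 to 0.40, limma adjusted p = 0.734). For Atg101 the Model replicates were far apart but above MUS, and for Map1lc3a the groups overlapped. Atg4d, a protease of the ATG4 family, had 1.90 and 2.11 FPKM in Model and 0.674 and 1.18 FPKM in MUS, a log2 fold change of -0.65 (SE 0.23, 95% interval -1.21 to -0.10, limma adjusted p = 0.506). Kri1 on the opposite strand overlaps 19.3% of the exon bases of Atg4d, and its part in this value was not tested. All 5 ATG8 genes had log2 fold changes at or below 0 in MUS vs. Model, from -0.80 for Map1lc3a to -0.01 for Map1lc3b, and none passed the test. This holds for the deposited values, since Map1lc3b lay above 0 under quantile normalization, under each of the 3 rescalings and without Model replicate 1 or MUS replicate 1.

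For the 7 genes that fell in Model, the intervals of MUS vs. Model all held 0. Tfeb had a log2 fold change of -0.16 (95% interval -0.95 to 0.62), Ulk1 of -0.11 (-0.60 to 0.39), Ulk2 of 0.10 (-0.35 to 0.55) and Atg2a of 0.02 (-0.62 to 0.67). Atg7 had -0.09 (-0.84 to 0.66), Gabarapl1 had -0.34 (-0.98 to 0.30), and Nbr1 is given above. These values share the Model libraries with the fold changes of Model vs. Control.

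Comparison of MUS vs. Control, which uses the same Control libraries as Model vs. Control and the same MUS libraries as MUS vs. Model, identified 9 of the 36 genes, 1 higher and 8 lower. Over all genes tested, 20.2% were called, 11.3% higher and 8.91% lower. The libraries did not overlap for 6 genes that were higher in MUS (39.6% of all genes) and for 21 that were lower (33.8% of all genes). In all, 26 genes lay below 0 (47.6% of all genes) and 13 had an unadjusted p under 0.05 (39.7% of all genes). Becn1 rose 2.32-fold over Control, with a log2 fold change of 1.05 (SE 0.20, limma adjusted p = 0.0126), from 4.45 and 4.33 FPKM in Control to 10.4 and 9.98 FPKM in MUS. The log2 fold change was 1.06 in batch 1 and 1.04 in batch 2. In recovered fragments Becn1 had 719 and 700 in Control and 1108 and 1145 in MUS, and the call was lost when libraries were scaled by fragments on genes, under the other 2 rescalings and after correction for gene length, while the value stayed at or above 0.59.

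The 8 genes that fell in MUS vs. Control were Tfeb, Map1lc3a, Atg7, Gabarapl1, Atg2a, Ulk1, Atg13 and Tfe3. Tfeb was 16.5-fold lower, with a log2 fold change of -2.45 (SE 0.33, limma adjusted p = 0.00436). Map1lc3a was 8.54-fold lower, with a log2 fold change of -2.03 (SE 0.51, limma adjusted p = 0.0295), but the value rests on 7 and 23 fragments in MUS against 268 and 99 in Control. Both MUS libraries of Map1lc3a were below both Control libraries. Tfe3 had 2.84 and 4.99 FPKM in MUS, against 9.66 and 9.0 FPKM in Control, a log2 fold change of -1.11 (SE 0.27, limma adjusted p = 0.0273). Atg13 had 4.74 and 6.23 FPKM in MUS, against 15.2 and 11.8 FPKM in Control, a log2 fold change of -1.16 (SE 0.24, limma adjusted p = 0.0158). For Tfe3 and Atg13, Model lay between Control and MUS in group means. The called log2 fold changes of the others were -1.48 for Atg7 (SE 0.32, limma adjusted p = 0.0179), -1.43 for Gabarapl1 (SE 0.27, limma adjusted p = 0.0120), -1.39 for Atg2a (SE 0.27, limma adjusted p = 0.0137) and -1.18 for Ulk1 (SE 0.21, limma adjusted p = 0.0100).

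Ulk2 and Nbr1 were not called in MUS vs. Control. Ulk2 had a log2 fold change of -0.92 (limma adjusted p = 0.0164), under the fold threshold, and Nbr1 of -0.79 (limma adjusted p = 0.146). After Becn1, the highest values belonged to Vmp1, with a log2 fold change of 0.92 (SE 0.35, limma adjusted p = 0.0962), and Atg16l1, with 0.61 (SE 0.24, limma adjusted p = 0.106). The median log2 fold change of the 36 genes was -0.31 with all libraries, -0.30 without Control replicate 1 and -0.37 without Control replicate 2. It was -0.40 without MUS replicate 1 and -0.43 without MUS replicate 2. Over all genes these medians were 0.04, 0.03, 0.07, 0.05 and 0.04 in the same order. With 1 library left out, Tfe3 came to -0.79 and Atg13 to -0.99 at the smallest, short of the fold threshold.

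Genes that act around the core machinery were counted from a list of 69, of which 59 were tested. In Model vs. Control 2 rose (3.39%, against 9.5% of all genes) and 8 fell (13.6%, against 5.56% of all genes). In MUS vs. Model 0 were called (limma, 3 genes at an unadjusted p under 0.05). In MUS vs. Control 3 rose (5.08%, against 11.3% of all genes) and 11 fell (18.6%, against 8.91% of all genes). With only the Control and Model libraries fitted, 1 rose and 6 fell in Model vs. Control, where 2.61% of all genes were called lower. Counts from fits without 1 library are not given, since they leave a single library in a group. With scaling by the fragments on genes, 1 rose and 18 fell both in Model vs. Control and in MUS vs. Control. Under that scaling 15.6% and 19.6% of all genes were called lower, with 641 and 736 of the 9794 genes called higher. Among 28 kinases and nutrient sensors tested, Sesn1 had 15.9 and 9.32 FPKM in Control and 0.996 and 0.843 FPKM in Model, a log2 fold change of -2.78 (limma adjusted p = 0.00220). Sesn1 encodes a sestrin, an inhibitor of mTORC1. Of the same group, Prkag2, an AMPK subunit gene, fell with a log2 fold change of -1.69, Rragd, a Rag GTPase gene, with -1.66, and Flcn, which encodes folliculin, a regulator of Rag GTPases, with -1.33. Of 9 other cargo receptors tested, Ncoa4, the ferritin receptor, fell with a log2 fold change of -2.05 and Calcoco1 with -1.51. Sesn1, Prkag2, Rragd and Calcoco1 passed the filter only through Control, with means there of 12.6, 3.06, 4.44 and 3.03 FPKM. Their means were 0.920, 0.233, 0.672 and 0.322 FPKM in Model, and 0.876, 0.366, 0.929 and 0.281 FPKM in MUS. A gene kept in this way can hardly be other than lower, which limits these calls and the counts of genes that fell. Sqstm1, the p62 gene, had 170 and 302 FPKM in Control, 265 and 202.74 FPKM in Model and 158 and 202.56 FPKM in MUS. Control overlapped both other groups, while Model and MUS lay just apart, and Sqstm1 was not called in any comparison.

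Plekhm1, an adaptor for autophagosome-lysosome fusion, had 37.7 and 29.5 FPKM in Control and 4.65 and 8.98 FPKM in Model, a log2 fold change of -2.20 (limma adjusted p = 0.00922), and it was the only gene called in that comparison among 13 of fusion with the lysosome. Tecpr1, which binds conjugated ATG12-ATG5, fell with a log2 fold change of -1.61. The genes that rose in Model vs. Control were Trim21, an interferon-induced antibody receptor and ubiquitin ligase, with a log2 fold change of 2.77, and Tfec, a relative of Tfeb in the MiT family, with 1.86 (limma adjusted p = 0.0398). Tfec had 1.58 and 6.85 FPKM in Control and 16.7 and 14.2 FPKM in Model, so Control replicate 2 was again nearer to Model. Mitf, the other relative tested, had 21.9 and 35.4 FPKM in Control and 29.9 and 32.2 FPKM in Model and was not called. In MUS vs. Control, Tax1bp1, a cargo receptor gene, also rose (log2 fold change 1.25, limma adjusted p = 0.0187), and Akt1s1, Lamtor1 and Sesn2, which encode components or regulators of the mTORC1 pathway, also fell, with log2 fold changes of -1.48, -1.97 and -1.18. Lamtor1 had 30.8 and 18.6 FPKM in Model and 8.29 and 11.9 FPKM in MUS, and its log2 fold change in MUS vs. Model was -1.19 (limma adjusted p = 0.433).

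TFEB and TFE3 bind E-box sequences, so the promoters of the genes were searched for the letters CACGTG, which read the same on both strands. Promoter sequences of RefSeq on GRCm38.p6, from 250 bases before to 50 bases after the start site, were at hand for 31 of the 38 genes. The motif lay in 4 of these 31 (12.9%), Atg7, Atg3, Atg5 and Atg14, against 8.09% of all 27025 genes with a promoter there and 7.15% of all 32851 promoters. In Atg3 the motif began 94 and 71 bases before the start site, and in Atg5 it began 14 bases before. These start sites lie 44 and 19 bases from the 5′ ends of the genes in the expression table. In Atg14 the motif began 1 base before a start site that lies 2215 bases inside the gene. Only Atg7 was among the 7 genes called in Model vs. Control, and its motif began 132 bases before a start site 27999 bases inside the gene, so the window is not at the 5′ end of Atg7 in the expression table. The stretches around the motif are shown because they place the one called gene beside the uncalled genes that carry the same letters. They lie at chr6:114670917-114671016 (plus strand, Atg7), chr16:45158688-45158810 (plus strand, Atg3), chr10:44268278-44268363 (plus strand, Atg5) and chr14:47568410-47568482 (minus strand, Atg14), and are written 5′ to 3′ on the gene's strand with the motif in capitals.
Atg7: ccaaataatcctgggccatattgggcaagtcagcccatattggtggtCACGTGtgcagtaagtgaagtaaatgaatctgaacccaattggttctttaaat
Atg3: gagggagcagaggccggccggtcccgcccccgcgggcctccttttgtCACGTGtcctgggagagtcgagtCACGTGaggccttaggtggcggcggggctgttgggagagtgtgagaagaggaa
Atg5: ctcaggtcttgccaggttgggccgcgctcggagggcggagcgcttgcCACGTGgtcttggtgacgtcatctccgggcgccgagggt
Atg14: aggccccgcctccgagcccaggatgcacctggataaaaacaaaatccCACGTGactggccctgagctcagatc

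The Model vs. Control log2 fold changes of these 4 genes were -1.39 for Atg7, 0.66 for Atg3, -0.41 for Atg5 and -0.53 for Atg14. Genes with the motif thus lay on both sides of 0, and a match of letters does not show that a factor binds there.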

How the data were processed

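RNA-seq of 6 libraries, 2 in each of Control, Model and MUS, was analysed from 1 table of FPKM that the authors deposited, together with the gene length in bases listed there by the authors. The paper's methods name RSEM for the FPKM, whereas the submitters' processing notes list HISAT2, featureCounts 1.5.0-p3 and GRCm39. Gene positions in the table equalled those of GENCODE M21 on GRCm38 for 98.3% of the 54495 shared genes and for 37 of the 38 autophagy genes, so coordinates are given on GRCm38. FPKM times length was a whole multiple of 1 step in each library (100% of values, tolerance 0.1 of a step), which gave fragments per gene. The per-million scale behind the deposited FPKM is not described. Per-sample columns without a sample numbered 0. The library protocol does not mark strand, so overlapping genes on opposite strands cannot be separated.

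Values of log2(FPKM + 1) for the 9794 genes whose FPKM averaged at least 1 were fitted with limma 3.58.1 in R 4.3.3 (lmFit, contrasts.fit, eBayes with a trend), with all 6 libraries in 1 model of 3 groups, 3 residual and 4.04 prior degrees of freedom. Tests were two-sided, and p-values were adjusted by Benjamini-Hochberg over all genes tested. Fold changes on this scale understate those of low genes. Calls needed an adjusted p not above 0.05 and a log2 fold change larger than 1 in size. The scripts were tested on simulated data. Tables and figures were made with Python 3.11.15, NumPy 2.4.6, pandas 2.3.3 and Matplotlib 3.10.9. DESeq2 and edgeR were not run, since the deposited unit is not counts.

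The autophagy genes, the list of further pathway genes and the alternatives were chosen with earlier results of these data known. Full statistics are given for genes called in any comparison and for the 3 highest and 3 lowest log2 fold changes in each, and further pathway genes are named where called in any comparison. Sqstm1 and Mitf were named after their values were seen. The labels give the replicate number as the batch. Differences between replicates 1 and 2 correlated across genes with r = 0.12 between Control and Model, 0.14 between Model and MUS and -0.09 between Control and MUS, and a fit with the replicate number as a block was run as an alternative. Other alternatives were another pseudocount, filters, scalings, trend, groups fitted, a gene-length correction, voom and leaving out each library.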

Additional observations from a re-analysis of the deposited data

How the results depend on the processing

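There were 18 alternatives, 6 of which left out 1 library and are given by effect size only. In each of the others 0 of the 36 genes were called in MUS vs. Model, where 0 to 7 of all genes tested were called. The count of 0 is thus near that over all genes and not particular to the autophagy genes. The median log2 fold change of the 36 genes in MUS vs. Model lay between -0.13 and 0.03 when a library was left out. In Model vs. Control, the count of 7 called genes became 0 with no filter on low values (limma, 30192 genes tested, 17 genes at an unadjusted p under 0.05, smallest adjusted p = 0.0702), where 260 of all genes were called. It became 4 of 17 with a mean FPKM of at least 5 (3 lower and Vmp1 higher), where 1086 of 5262 genes were called. With only the Control and Model libraries fitted it became 2, where 797 of 9794 genes were called. It became 15 after rescaling without mitochondrial and top 20 genes, 13 with fragment-total scaling and 16 with voom on recovered fragments, where the median went from -0.43 to -0.96, -0.91 and -1.18 and the share of all genes called lower was 17.8%, 15.6% and 20.9%. The median over all genes was then -0.45, -0.40 and -0.50. Becn1 turned from 0.42 to -0.104, -0.0438 and -0.0525 under the same 3 settings. Leaving out 1 library gave 1 to 12 called genes. With the replicate number as a block 6 genes were called, without Gabarapl1. The block changed no other call of an autophagy gene in Model vs. Control or MUS vs. Control, whose counts with it were 6 and 9. Over all genes 1582 and 2125 were called with the block. In MUS vs. Control, the count of 9 became 1 with no filter (Tfeb) and 5 with a mean FPKM of at least 5. Under the same 3 rescalings it became 14, 15 and 18, with 19.7%, 19.6% and 24.4% of all genes called lower. Its median of -0.31 became -0.61 with a mean FPKM of at least 5 and -0.70, -0.70 and -1.02 under the rescalings. This median lay between -0.43 and -0.30 when 1 library was left out. The cause of these shifts was not tested, apart from the fewer genes and libraries that some settings leave. The log2 fold change of Tfeb in Model vs. Control lay between -4.05 and -1.83 in the 17 alternatives that tested it. Its call was lost with no filter, and at a mean FPKM of at least 5 it was not tested. Tfeb passed the main filter through Control, with means of 7.30 FPKM there, 0.629 FPKM in Model and 0.443 FPKM in MUS. Each group had 2 libraries, and low genes such as Map1lc3a, with 7 fragments in MUS replicate 1, are limited by depth.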

Other observations

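Mitochondrially encoded transcripts summed to 8209 to 8513 FPKM in Control, 3479 to 4023 FPKM in Model and 1386 to 2230 FPKM in MUS, so their share moved with both comparisons described here. Their part in the fold changes of the autophagy genes was not tested beyond the rescaling without them. Of 62 further pathway genes with a promoter at hand, 12 (19.4%) held the letters CACGTG, against 12.9% of the core genes.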
